A study of Drosophila melanogaster with 12 samples.

Results

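Genes of the basement membrane, the thin sheet of extracellular matrix that lines the fat body and other organs of the fly larva, were followed in RNA of the Drosophila melanogaster fat body. The members were the rows of the abundance table named Cg25C, vkg, trol, LanA, LanB1, LanB2, Ndg, Pxn and Ppn, 9 genes of the 9367 whose names could be told apart. SPARC, the tenth name of the rule, is not a row name there. The reference lists BM-40-SPARC, which is a row, as its synonym, so that row is described beside the members and left out of their counts.

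Diet (2 kinds of food) was crossed with genotype (2 stocks), and each of the 4 groups had 3 libraries. All larvae were female, were taken at the wandering stage that ends larval life and carried UAS-Dcr2 on the X with the fat body driver r4-GAL4. In the control groups this driver stock had been crossed to VDRC stock 60100, and in the other groups to VDRC stock 100762, named UAS-Svpi, an RNAi stock against the nuclear receptor gene svp. Food held 0.15 M sucrose (control diet) or 0.7 M sucrose (high sugar). Nothing in the labels tells whether these replicates came from separate animals, so p-values measure the spread between these libraries, which may be technical.

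Basement membranes are built on networks of laminin and of collagen IV, joined by nidogen and the heparan sulphate proteoglycan perlecan. In the fly, collagen IV of the larval basement membranes is made mainly in the fat body and travels through the hemolymph, while hemocytes, muscle and other tissues also make matrix proteins. Peroxidasin crosslinks collagen IV chains, papilin is a secreted matrix glycoprotein, and SPARC binds collagen IV and is needed for its normal deposition.

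The libraries held 4380821 to 6557494 recovered reads, and each member had between 379 and 6430 recovered reads in each library. Recovered reads were rebuilt from the deposited values and rounded. The rebuilding was checked only on genes with group means under 20, which lie below those of the members. Of the 10 fat body marker names checked, 8 were rows of the table, and none of these was at 0. They took 24.0% to 28.8% of reads in control-diet control and 22.4% to 26.0% in the svp RNAi-labelled libraries there. On high sugar they took 26.8% to 28.1% against 23.5% to 26.1%. With genotype 4 of the 8 were called lower and 0 higher on each diet, beside 4.29% and 6.22% of all genes lower. The median log2 fold changes of the 8 were -0.76 on the control diet and -0.49 on high sugar. The part of these markers in the results was not tested. The row of svp itself, the targeted gene, went against the label: its normalized abundance on the control diet was 516, 477 and 373 in control and 1658, 1665 and 1351 in the svp RNAi-labelled libraries. On high sugar it was 631, 628 and 664 against 1712, 1480 and 2180. The row was thus 3.43-fold and 2.76-fold higher in the svp RNAi-labelled libraries (limma adjusted p = 6.8e-06 and 2.2e-05). In the reference annotation exons of svp overlap CG44037 on the same strand, so the row may not count svp transcripts alone. It shows no knockdown, but whether svp transcripts themselves were lowered cannot be read from it. Directions below are those of the libraries as labelled.

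The members that changed with genotype were the collagen IV chains, perlecan, peroxidasin and nidogen, whereas the laminin subunits and papilin gave no call. Collagen IV and perlecan RNA was lower in the svp RNAi-labelled libraries on both diets, peroxidasin was called lower and nidogen higher on high sugar. On high sugar Cg25C, trol and Ppn were called lower than on the control diet in both genotypes, and vkg in the svp RNAi-labelled libraries. These diet calls were less stable than those with genotype. In control larvae 0 members passed without control-diet control replicate 3 or without high-sugar control replicate 3. The lowest collagen IV values of the 12 libraries stood in the high-sugar svp RNAi-labelled group. In these bulk samples fewer cells of a type and less RNA per cell cannot be told apart. Muscle markers also fell with genotype, 11 of 14 on the control diet and 7 on high sugar, beside 4.29% and 6.22% of all genes. So did 4 of 8 fat body markers on each diet and the hemocyte marker Hml. Of the 12 hemocyte markers 2 others rose on each diet, beside 4.27% and 7.17% of all genes. Their part in the results was not tested.

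**Figure D1:**
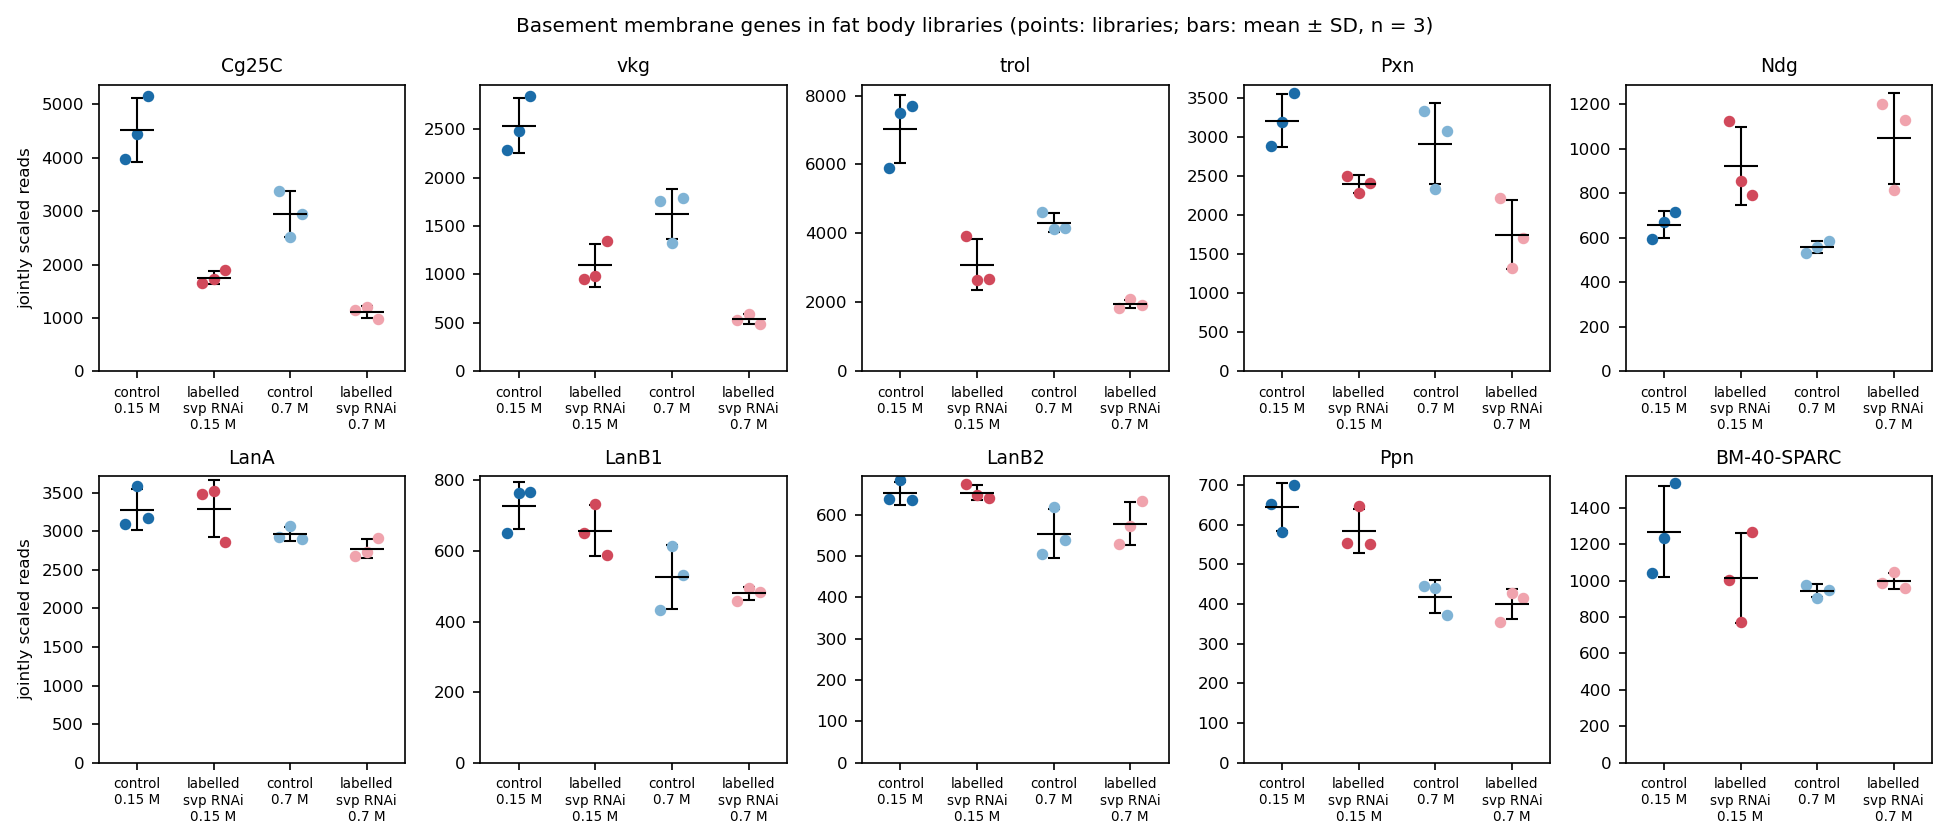
Each panel plots 1 gene, with jointly scaled reads on the vertical axis from 0 and the 4 groups on the horizontal axis; points are libraries and bars the mean ± SD (n = 3). Cg25C falls from a mean of 4527 in control-diet control to 1111 in the high-sugar svp RNAi-labelled libraries, while LanA stays between group means of 2775 and 3296.

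The gene Cg25C (FBgn0000299, now Col4a1, on chromosome arm 2L) encodes the collagen IV alpha 1 chain. On the control diet its normalized abundance, the authors' deposited read-like value, was 3829, 4246 and 5000 in the control libraries. It was 1614, 1672 and 1827 in those labelled svp RNAi. Every value of the latter lay below every control value. Cg25C fell 2.54-fold (log2 -1.35 ± 0.14 SE, limma adjusted p = 2.8e-05). On high sugar the control libraries held 3527, 2654 and 3086 and the svp RNAi-labelled libraries 1199, 1268 and 1021. The groups were again separate, and the fall was 2.65-fold (log2 -1.40 ± 0.14 SE, limma adjusted p = 1.5e-05).

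The viking gene vkg (FBgn0016075, arm 2L) encodes the collagen IV alpha 2 chain and is the neighbour of Col4a1 on the opposite strand in the reference annotation (BDGP6). Its values on the control diet were 2201, 2366 and 2751 in control and 924, 953 and 1305 in the svp RNAi-labelled libraries. Replicate 3 of the latter stood above its group but below all controls. The fall was 2.32-fold (log2 -1.21 ± 0.16 SE, limma adjusted p = 0.00017). On high sugar vkg was at 1825, 1395 and 1877 against 555, 624 and 510. These groups were far apart, and vkg fell 2.997-fold (log2 -1.58 ± 0.16 SE, limma adjusted p = 1.5e-05), the largest change of a member in the contrasts made.

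The RNAs of both chains moved in the same direction in each genotype and diet contrast, though not always by the same amount. Per kilobase of annotated exon, the ratio of Cg25C to vkg was 1.88 ± 0.04 in control and 1.72 ± 0.21 in svp RNAi-labelled libraries on the control diet, and 1.93 ± 0.17 and 2.18 ± 0.09 in the same order on high sugar (SD, n = 3). The high-sugar svp RNAi-labelled libraries, at 2.28, 2.14 and 2.11, stood above all others, of which the highest was 2.04. The lowest ratio of the 12 libraries, 1.48, was that of control-diet replicate 3 labelled svp RNAi. Together the chains took 0.1105% to 0.1195% of the reads of a control-diet control library and 0.0274% to 0.0363% of a high-sugar svp RNAi-labelled library.

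The perlecan gene trol (FBgn0284408, arm X) encodes the large proteoglycan of the basement membrane. It was at 5680, 7164 and 7439 in control-diet control and at 3831, 2569 and 2597 in the svp RNAi-labelled libraries. The groups did not overlap, although replicate 1 labelled svp RNAi was nearer to control than the others. The gene fell 2.28-fold (log2 -1.19 ± 0.16 SE, limma adjusted p = 0.00023). Its high-sugar values were 4823, 4353 and 4364 in control against 1929, 2200 and 1993. Here the libraries of each group lay close together, and the fall was 2.21-fold (log2 -1.15 ± 0.16 SE, limma adjusted p = 0.00026).

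Peroxidasin, encoded by Pxn (FBgn0011828, arm 3L), had normalized abundances of 2781, 3047 and 3449 in control-diet control and 2441, 2221 and 2331 in the svp RNAi-labelled libraries. Although these groups did not overlap, the log2 fold change of -0.40 ± 0.18 (SE) did not pass (limma adjusted p = 0.20). On high sugar the values were 3468, 2462 and 3232 against 2322, 1395 and 1783. The highest svp RNAi-labelled library stood just below the lowest control. Pxn fell 1.68-fold (log2 -0.75 ± 0.18 SE, limma adjusted p = 0.010). In the reference annotation exons of Pxn overlap CG16986 on the opposite strand, a gene at 21.4 to 41.9 in all libraries. They also overlap the noncoding gene lncRNA:CR45660 on the same strand, so the row may not count Pxn transcripts alone.

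The nidogen gene Ndg (FBgn0026403, arm 2R), whose product bridges laminin and collagen IV, went the other way. On high sugar Ndg was at 553, 587 and 612 in control and at 1255, 857 and 1177 in the svp RNAi-labelled libraries. All of the latter were higher, and they were more widely spread. The rise was 1.85-fold (log2 0.89 ± 0.16 SE, limma adjusted p = 0.0016). On the control diet Ndg was at 571, 640 and 692 against 1092, 831 and 766, also with no overlap. This log2 fold change of 0.49 ± 0.16 (SE) missed the threshold (limma adjusted p = 0.079), but it passed without control-diet replicate 3 labelled svp RNAi (adjusted p = 0.047), without high-sugar replicate 2 labelled svp RNAi (0.045) and under quantile normalization (0.046). Exons of Ndg overlap a gene on the opposite strand in the reference, and strand use in the counting is not stated.

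The laminin trimer is made of the products of LanA (alpha), LanB1 (beta) and LanB2 (gamma). LanA (FBgn0002526, arm 3L) ranged over the 12 libraries from 2772 to 3430 in normalized abundance, LanB1 (FBgn0261800, arm 2L) from 451 to 744 and LanB2 (FBgn0267348, arm 3L) from 527 to 661. Control libraries and those labelled svp RNAi overlapped for each subunit on both diets. Their log2 fold changes with genotype lay between -0.14 ± 0.14 (LanB1, control diet) and 0.06 ± 0.11 (LanB2, high sugar; SE). None passed in limma, with adjusted p from 0.63 to 0.96. The signs of these small differences changed under quantile normalization for LanA and LanB2 on the control diet and for LanB2 on high sugar.

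Papilin, encoded by Ppn (FBgn0003137, arm 3R), was at 629, 554 and 678 in control-diet control and 538, 630 and 533 in the svp RNAi-labelled libraries. On high sugar Ppn was at 463, 463 and 389 against 372, 448 and 433. The genotypes overlapped on each diet, with log2 fold changes of -0.13 ± 0.13 and -0.07 ± 0.13 (SE, limma adjusted p = 0.62 and 0.78). The row BM-40-SPARC (SPARC, FBgn0026562, arm 3R) was at 1003, 1176 and 1486 against 977, 748 and 1227 on the control diet, and at 1017, 953 and 994 against 1030, 1103 and 1002 on high sugar. It gave no call either (limma adjusted p = 0.29 and 0.81).

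In all, 3 of the 9 members fell and 0 rose with genotype on the control diet, where 8.56% of the 9367 genes were called, 4.29% lower and 4.27% higher. By unadjusted limma p under 0.05, 5 members changed, beside 2069 of the 9367 genes. With limma voom on recovered reads, 3 members were called. On high sugar 4 fell and 1 rose, where 13.4% of all genes were called, 6.22% lower and 7.17% higher. The median log2 fold change of the members was -0.14 on the control diet and -0.12 on high sugar, against 0.01 and -0.01 over all genes. On each diet the groups did not overlap for 5 members, 4 of them lower and 1 higher. Over all genes 12.3% were lower and 13.8% higher without overlap on the control diet, and 15.3% and 16.4% on high sugar.

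**Figure D2:**
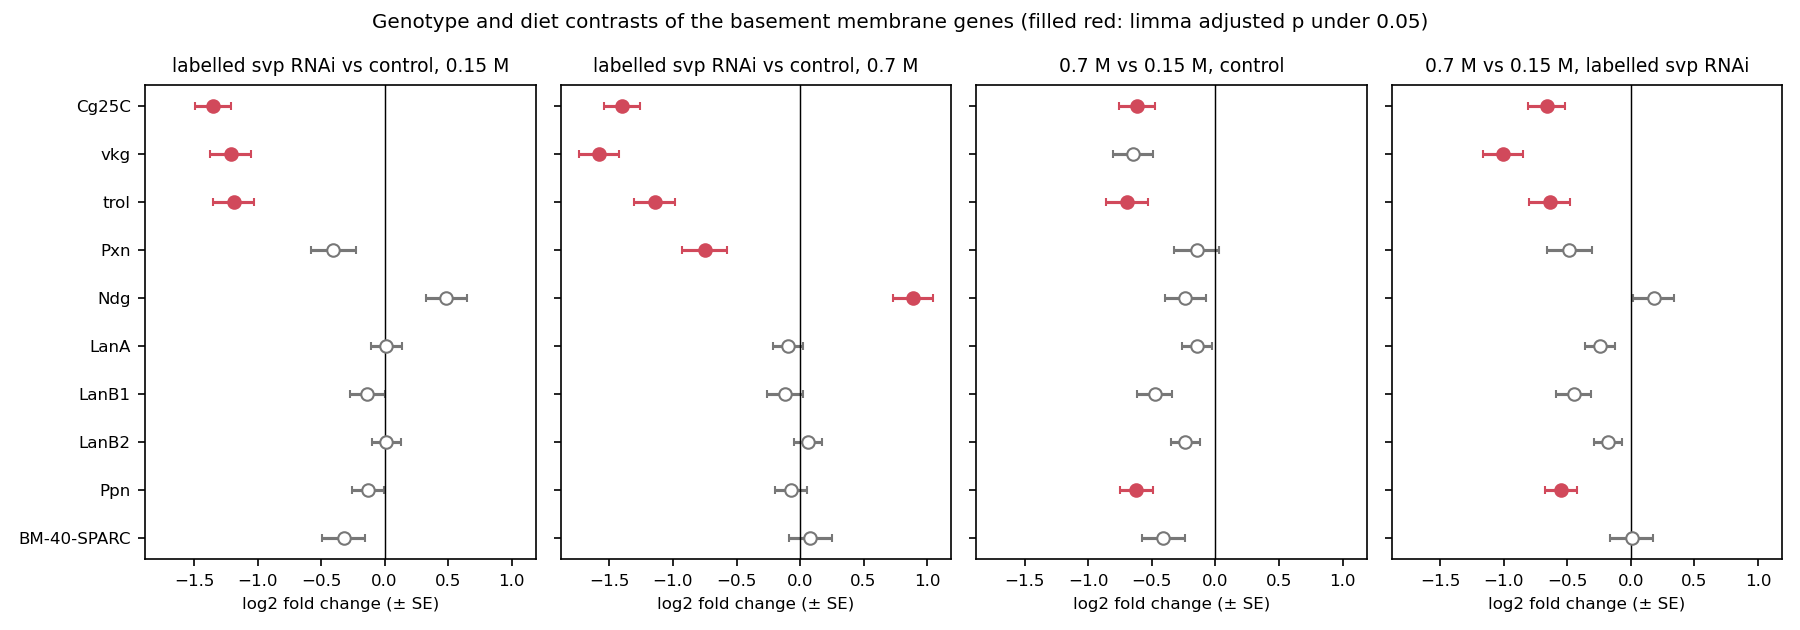
Log2 fold change on the horizontal axis with its limma standard error as a bar, for the 9 members and BM-40-SPARC in 4 contrasts; filled red points passed an adjusted p of 0.05. Cg25C and vkg lie between -1.21 and -1.58 in both genotype contrasts, and Ndg stands at 0.89 on high sugar.

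To compare diets, all libraries were put on 1 scale as recovered reads divided by joint size factors, called jointly scaled reads here. In control larvae Cg25C was at 3971, 4446 and 5165 jointly scaled reads on the control diet and 3387, 2523 and 2942 on high sugar. The diets did not overlap, and the fall was 1.54-fold (log2 -0.62 ± 0.14 SE, limma adjusted p = 0.039). The gene trol went from 5891, 7501 and 7683 to 4632, 4140 and 4161, again without overlap, and fell 1.62-fold (log2 -0.70 ± 0.16 SE, adjusted p = 0.042). Ppn went from 652, 580 and 701 to 445, 440 and 371, all lower on high sugar, a 1.54-fold fall (log2 -0.62 ± 0.13 SE, adjusted p = 0.020). The fold change of vkg was like that of its partner chain, from 2282, 2477 and 2843 to 1752, 1327 and 1790 (log2 -0.65 ± 0.16 SE), and just missed the threshold (adjusted p = 0.053). LanB1 was at 651, 765 and 768 against 432, 614 and 531 (log2 -0.48 ± 0.14 SE, adjusted p = 0.097).

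Thus 3 members fell and 0 rose in control larvae, with 1.9% of all genes called, 0.641% lower and 1.26% higher. For 8 members, all but Pxn, every high-sugar value lay below every control-diet value, as it did for 9.76% of all genes. All 9 log2 fold changes were below 0, with a median of -0.48 against -0.01 over all genes. These calls were not stable to single libraries. Without control-diet control replicate 3, and likewise without high-sugar control replicate 3, 0 members passed. The call of Cg25C also ended without control-diet control replicate 2, control-diet replicate 2 labelled svp RNAi, high-sugar control replicate 2 or high-sugar replicate 1 labelled svp RNAi (adjusted p from 0.052 to 0.154 over these 6). That of trol ended without control-diet control replicate 2 or 3 or any 1 of the 6 high-sugar libraries (adjusted p from 0.0505 to 0.149). That of Ppn ended without control-diet control replicate 1 or 3 or high-sugar control replicate 3 (adjusted p from 0.058 to 0.092). In contrast, vkg passed without control-diet replicate 3 labelled svp RNAi (adjusted p = 0.026) and LanB1 without high-sugar control replicate 2 (adjusted p = 0.0495).

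In the svp RNAi-labelled libraries, vkg showed the largest diet difference, from 950, 981 and 1349 jointly scaled reads on the control diet to 531, 594 and 489 on high sugar. The groups were well apart, and vkg fell 2.01-fold (log2 -1.01 ± 0.16 SE, limma adjusted p = 0.0021). Cg25C went from 1659, 1721 and 1889 to 1147, 1206 and 979, a 1.58-fold fall (log2 -0.66 ± 0.14 SE, adjusted p = 0.012). The values of trol were 3938, 2644 and 2686 against 1845, 2094 and 1910, a 1.56-fold fall (log2 -0.64 ± 0.16 SE, adjusted p = 0.028). Ppn went from 552, 648 and 552 to 356, 427 and 415, a 1.46-fold fall (log2 -0.55 ± 0.13 SE, adjusted p = 0.018). None of these 3 pairs of groups overlapped either.

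Hence 4 members fell and 0 rose, where 8.46% of all genes were called, 3.73% lower and 4.73% higher, and the median log2 fold change was -0.49 against -0.01 over all genes. The groups did not overlap for 7 members, all lower, beside 13.7% of all genes lower and 17.4% higher. The fall of vkg passed whichever library was left out. Without high-sugar replicate 3 labelled svp RNAi it was the only member to pass. The call of Cg25C ended without that library or control-diet replicate 3 labelled svp RNAi (adjusted p = 0.070 and 0.0504). That of trol ended without it, without high-sugar replicate 1 or without control-diet replicate 1 labelled svp RNAi (adjusted p from 0.079 to 0.094). That of Ppn ended without it, without high-sugar replicate 1 or without control-diet replicate 2 labelled svp RNAi (adjusted p from 0.053 to 0.070). Conversely, LanB1 (log2 -0.45 ± 0.14 SE, adjusted p = 0.058) passed without high-sugar control replicate 1 (0.034) or 2 (0.047) and under quantile normalization (0.029), and Pxn (log2 -0.49 ± 0.18 SE, adjusted p = 0.10) passed without high-sugar replicate 1 labelled svp RNAi (0.041) and under quantile normalization (0.048).

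The interaction, which is the diet difference in the svp RNAi-labelled libraries minus that in control, was called for 0 of the 9 members by limma and by limma voom, and 0 had an unadjusted p under 0.05. Over all genes 0.192% were called, 0.107% above 0 and 0.0854% below, and 1105 of 9367 had an unadjusted limma p under 0.05. The largest estimates were those of Ndg at 0.40 ± 0.23, vkg at -0.37 ± 0.23 and Pxn at -0.35 ± 0.25 (log2, SE, limma adjusted p = 0.50, 0.53 and 0.61). A difference of the genotype effects between diets was thus not shown for Pxn and Ndg, although they were called only on high sugar. The diet contrasts and the genotype contrasts share groups, so the same libraries stand behind more than 1 of these values.

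Levels were compared between genes as jointly scaled reads per kilobase, with the union of annotated exons in BDGP6 as length, from 1201 bases for SPARC to 20674 for trol. For genes with many isoforms, such as trol, this length is above that of a single transcript, which lowers the value. In control-diet control BM-40-SPARC stood first at 1057 ± 208 reads per kilobase, followed by Cg25C at 734 ± 97.5, Pxn at 539 ± 57.1 and vkg at 390 ± 43.7 (SD, n = 3). These neighbours did not overlap. Next came trol at 340 ± 47.7, LanA at 281 ± 22.7, Ndg at 137 ± 12.9, LanB1 at 116 ± 10.6, LanB2 at 110 ± 4.71 and Ppn at 67.5 ± 6.36. Among these, vkg overlapped trol, trol overlapped LanA, and LanB1 overlapped LanB2.

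In the high-sugar svp RNAi-labelled libraries the order was different. BM-40-SPARC still stood first at 831 ± 38.5, but Pxn (294 ± 75.2), LanA (237 ± 10.2) and Ndg (217 ± 42.5) now had means above that of Cg25C (180 ± 19.1), with each neighbour in this order overlapping. The next levels were LanB2 at 97.8 ± 8.74, trol at 94.3 ± 6.25, vkg at 82.7 ± 8.15 and LanB1 at 76.4 ± 3.05, each overlapping the next, and Ppn was last at 41.8 ± 3.98 (SD, n = 3). The ratio of Ndg to vkg per kilobase went from 0.35 ± 0.01 in control-diet control to 2.67 ± 0.71 in this group, and the ratio of Cg25C to LanA from 2.63 ± 0.41 to 0.76 ± 0.11.

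**Figure D3:**
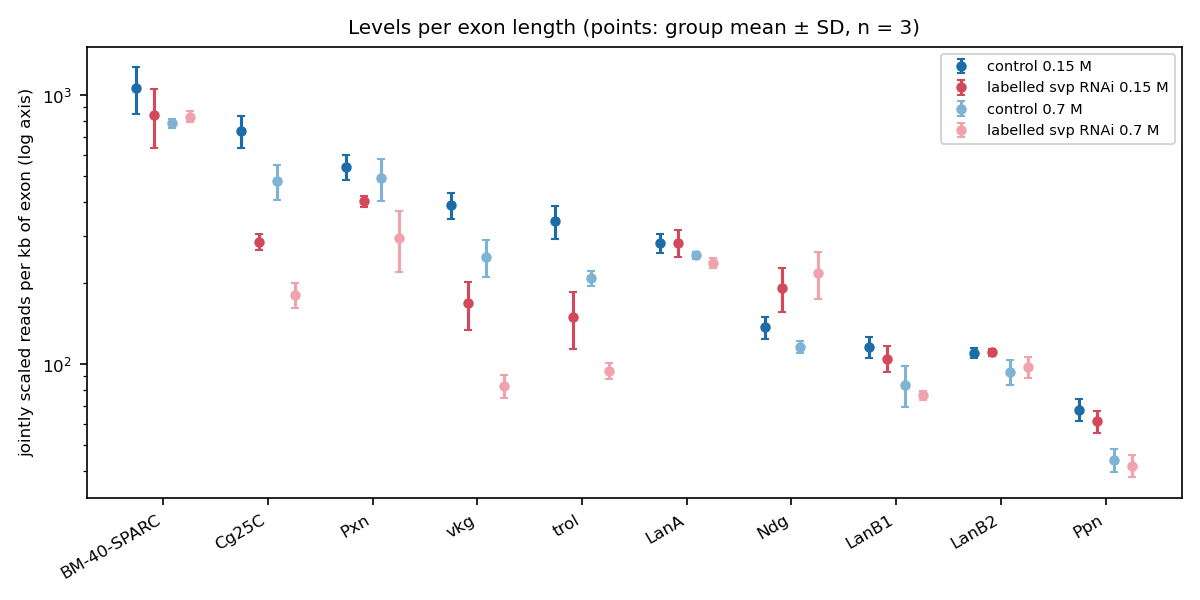
Jointly scaled reads per kilobase of exon on a log axis for the members and BM-40-SPARC, as group means ± SD (n = 3) with 1 colour a group. Cg25C, vkg and trol are highest in control-diet control and lowest in the high-sugar svp RNAi-labelled libraries (vkg at 390 and 82.7). LanB2 keeps group means between 93.7 and 110.

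Across the 12 libraries, jointly scaled log2 values of Cg25C and vkg correlated with a Pearson r of 0.98, Cg25C and trol with 0.96, and Cg25C and Pxn with 0.86. The laminin subunits formed another set, with r from 0.73 to 0.82 among themselves, and Ppn went with LanB1 at 0.85. Ndg correlated at -0.77 with Cg25C. These are descriptions over libraries that share 4 group means. After the group means were removed, Cg25C and vkg still correlated at 0.83, and the laminins at 0.55 to 0.65. The others were weaker, with Cg25C and Pxn at 0.42, Cg25C and trol at 0.27, Ppn and LanB1 at 0.21 and Ndg and Cg25C at -0.21. Cg25C and LanB2, at 0.12 over all libraries, stood at -0.72 within groups.

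Genes outside the members were ranked by the likeness of their pattern to the mean of Cg25C and vkg over the 12 libraries, among 5667 genes with a mean of at least 50. The 5 most like were CG3603 (r = 0.983), CG10184 (0.971), Ssadh (0.970), CG7834 (0.965) and spirit (0.962). CG3603 had group means of 354 ± 14.9 and 166 ± 15.6 jointly scaled reads on the control diet and 241 ± 29.5 and 95.5 ± 13.8 on high sugar (SD, n = 3), control first. Since these genes were chosen for their likeness, their levels are a description, and the libraries share 4 group means. When the members are ranked too, among all 5667 genes, vkg and Cg25C, which set the pattern, take ranks 1 and 2. On that scale trol stood at rank 10 with r = 0.955 and Pxn at rank 101 with r = 0.868.

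Of 47 other genes of matrix, collagen folding and secretion, matrix remodelling and matrix receptors, BM-40-SPARC among them, 2 rose and 2 fell with genotype on the control diet. These shares of 4.26% each are near the 4.27% and 4.29% of all genes. The other matrix genes included the strongest fall, that of Tig, which encodes the integrin ligand tiggrin. Tig was at 4355, 4506 and 5322 against 1380, 1144 and 1368 on the control diet and at 4101, 4311 and 4613 against 1602, 1356 and 1147 on high sugar. It was lower in all svp RNAi-labelled libraries and fell 3.64-fold and 3.197-fold (limma adjusted p = 1.9e-06 and 2.8e-06). The other 3 calls on the control diet were Hsc70-3, an endoplasmic reticulum chaperone, 1.43-fold higher, Cp1, a cathepsin L, 1.44-fold higher, and the peroxidase-like gene CG10211, 1.62-fold lower.

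On high sugar 7 of the 47 rose and 1, Tig, fell, against 7.17% and 6.22% of all genes. The list of 20 folding and secretion genes held 5 of these rises: Hsc70-3 (1.64-fold), the chaperone gene Gp93 (1.42-fold), the prolyl 4-hydroxylase gene PH4alphaEFB (1.38-fold), the disulphide isomerase gene ERp60 (1.35-fold) and Tango9 (1.47-fold), with limma adjusted p from 0.0038 to 0.030. PH4alphaEFB, whose product hydroxylates collagen prolines, was at 192, 204 and 232 in control and 315, 266 and 285 in the svp RNAi-labelled libraries. On the control diet, where both collagen IV chains fell too, its genotypes overlapped (log2 0.08 ± 0.12 SE, limma adjusted p = 0.77). The cargo receptor gene Tango1 and the lysyl hydroxylase gene Plod gave no call, with group means from 433 to 547 and from 399 to 462 in normalized abundance. The other 2 rises were among the 11 receptor genes: rhea, which encodes talin (1.302-fold, adjusted p = 0.049), and stck, which encodes PINCH (1.41-fold, adjusted p = 0.035). Across diets 1 of the 47 (2.13%) rose and 0 fell in each genotype. Over all genes 1.26% rose in control and 4.73% in the svp RNAi-labelled libraries. The calls were Cp1 in control (1.63-fold, limma adjusted p = 0.020) and Rab10 in the svp RNAi-labelled libraries (1.39-fold, adjusted p = 0.025). Rab10 encodes a small GTPase needed for basement membrane secretion. Median log2 fold changes of the 47 genes were -0.01 and 0.09 with genotype, on control diet and high sugar, and -0.12 and -0.02 with diet, in control and in the svp RNAi-labelled libraries.

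The counts of calls among the 47 depended on single libraries and on the fit. Without the intensity trend, genotype gave 2 calls on the control diet in place of 4 and 4 on high sugar in place of 8, and each diet contrast 0 in place of 1. With only the libraries compared, 5 passed with genotype on high sugar and 0 with diet in the svp RNAi-labelled libraries. With deposited values unscaled, 7 were called in that diet contrast, all higher. When 1 library was left out, genotype gave 1 to 4 calls in control-diet larvae and 4 to 10 in high-sugar larvae, and each diet contrast 0 to 1. Tig on both diets, and Hsc70-3 and Tango9 on high sugar, passed in all 22 alternatives. On the control diet the call of Hsc70-3 ended without any 1 of the 6 control-diet libraries or high-sugar replicate 3 labelled svp RNAi (adjusted p up to 0.119). That of CG10211 ended without any 1 control replicate or replicate 2 or 3 labelled svp RNAi on that diet (up to 0.102). On high sugar the call of PH4alphaEFB ended without control replicate 1 or 2 or replicate 1 or 3 labelled svp RNAi (up to 0.0875), and that of ERp60 without replicate 1 or 3 of either genotype (up to 0.101). That of Gp93 ended without control replicate 2 or 3 or replicate 1 or 3 labelled svp RNAi (up to 0.118), and that of stck without control replicate 2 or 3 or replicate 1 or 2 labelled svp RNAi (up to 0.149). The call of rhea held in 6 of 22 alternatives, and of the 12 that leave out a library only without control-diet replicate 3 labelled svp RNAi or high-sugar control replicate 1 (adjusted p up to 0.164). With diet, the call of Cp1 in control ended without control replicate 2 or 3 on the control diet or 1 or 3 on high sugar (up to 0.0943). That of Rab10 ended without replicate 2 or 3 on the control diet or replicate 1 or 3 on high sugar labelled svp RNAi (up to 0.119).

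Muscle markers moved in the direction of the collagens and trol with genotype. All 14 markers were rows of the table and none was at 0. Of them 11 (78.6%) fell on the control diet and 7 (50%) on high sugar, beside 4.29% and 6.22% of all genes. Their median log2 fold changes were -1.22 and -0.78. Their summed jointly scaled reads were 33816 to 45256 in control-diet control and 18073 to 23306 in the svp RNAi-labelled libraries, and 25839 to 38225 against 17763 to 21426 on high sugar. With diet, 1 of the 14 muscle markers was called lower in control, up, the troponin T gene, beside 0.641% of all genes. In that contrast 12 had log2 fold changes below 0, and the median was -0.46. An unadjusted limma p under 0.05 was found for 9, beside 1451 of the 9367 genes. In the svp RNAi-labelled libraries 0 were called, beside 8.46% of all genes, and the median was 0.00. There 0 had an unadjusted p under 0.05, beside 2386 of the 9367 genes. The part of muscle markers in the diet results was not tested.

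Hemocyte markers, of which 12 of 16 names were rows and none of these at 0, went both ways. The names PPO1, PPO2, Bc and NimC4 were not rows of the table. Hml, which encodes hemolectin, followed the pattern of Cg25C. Its jointly scaled reads were 759, 782 and 1027 in control-diet control and 378, 406 and 375 in the svp RNAi-labelled libraries, and 431, 455 and 458 against 225, 233 and 195 on high sugar. It fell in all 4 contrasts, 2.17-fold and 2.06-fold with genotype and 1.89-fold and 1.78-fold with diet (limma adjusted p from 5.5e-05 to 0.0018). The phagocytosis receptor genes eater and nimC1 gave no call with genotype, with log2 fold changes of -0.01 ± 0.32 and 0.07 ± 0.32 for eater and 0.28 ± 0.34 and -0.27 ± 0.34 for nimC1 (SE). The scavenger receptor gene crq and nimC2, of the same family as nimC1, rose with genotype on both diets, by 1.54-fold to 2.31-fold.

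Over the list, 2 hemocyte markers rose and 1 fell with genotype on each diet, 1 fell with diet in control, and 4 fell with diet in the svp RNAi-labelled libraries. Those 4 were Hml, nimC1, He and Ance. The summed hemocyte markers, in which nimC2 and Nplp2 weigh most, ranged from 10611 to 11688 in control-diet control, 12338 to 14675 in control-diet svp RNAi-labelled libraries, 8022 to 9805 in high-sugar control and 9631 to 12157 in high-sugar svp RNAi-labelled libraries. Of the markers of other tissues, 1 of 10 for neuron and glia was lower on the control diet and 5 on high sugar, with 1 higher on each. These lower shares of 10% and 50% stand beside the 4.29% and 6.22% of all genes. Of 12 imaginal disc, 8 salivary gland and 7 tracheal or epidermal markers, 0, 2 and 1 were called lower with genotype on the control diet and 0, 1 and 2 on high sugar. Their lower shares were 0%, 25% and 14.3% on the control diet and 0%, 12.5% and 28.6% on high sugar. For the discs 0 were called higher. On the 2 diets 0 and 3 had an unadjusted limma p under 0.05, beside 2069 and 2576 of the 9367 genes.

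**Figure D4:**
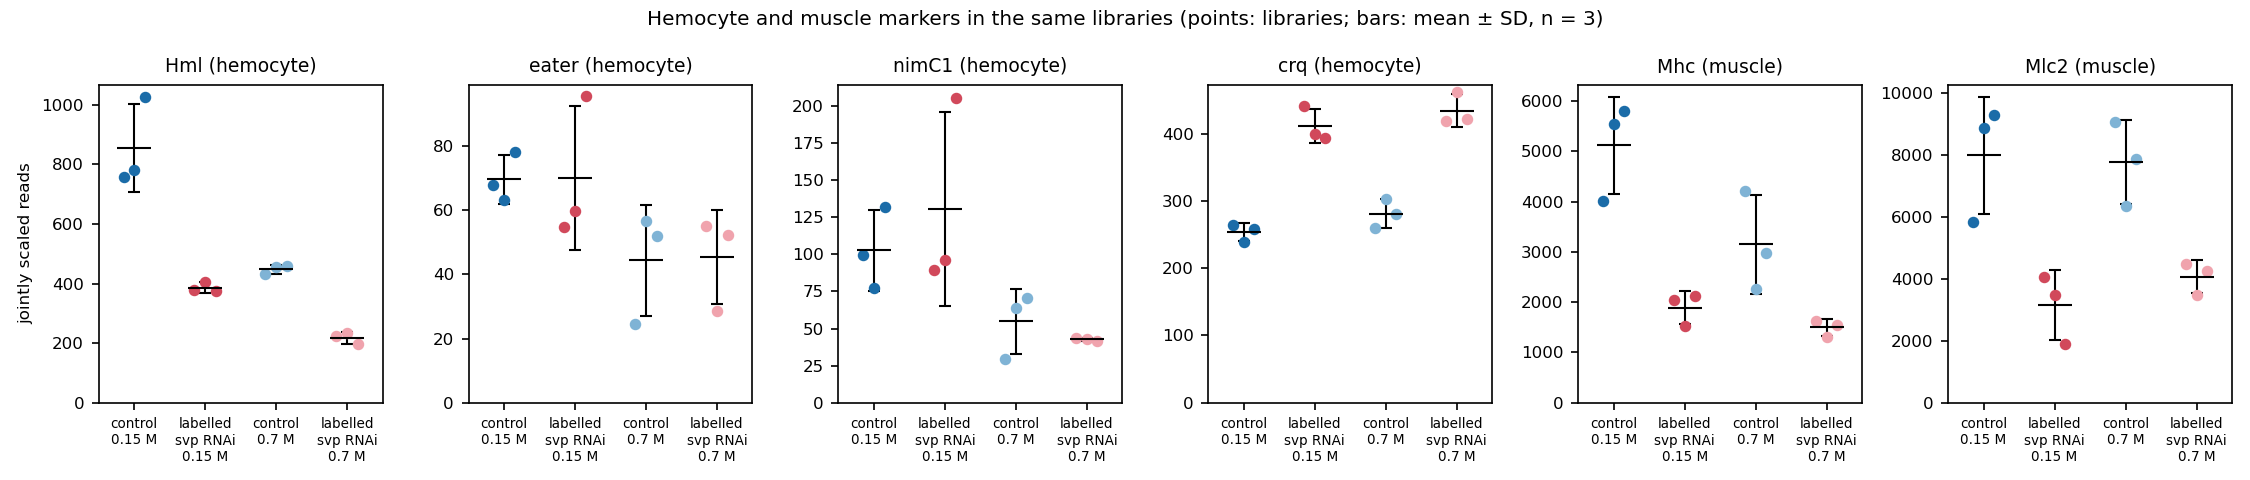
Jointly scaled reads of 4 hemocyte and 2 muscle markers by group; points are libraries and bars the mean ± SD (n = 3). Hml, like Cg25C, is highest in control-diet control (mean 856) and lowest in the high-sugar svp RNAi-labelled libraries (218). The gene crq is higher in the svp RNAi-labelled libraries (411 and 434 against 254 and 281), and eater overlaps between genotypes.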

How the data were processed

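RNA of 12 fat body libraries in 4 groups of 3 was measured by sequencing after ribosomal RNA removal, per the labels' protocols. The submitters' processing notes name TopHat 1.3.2, Bowtie 0.12.7, Cufflinks 1.1.0, edgeR and build dm3; the counting program, gene annotation, strand setting and filters: not given in the sources used here. Each deposited value is a signal, namely a read-like normalized abundance that the authors adjusted to a common library size, separately for each diet as the values show, and not divided by length.

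Of 9527 rows, 156 with names not unique without case and 4 bare numbers were left out, which left 9367 genes. All had a mean of at least 1. Inverting a negative binomial quantile adjustment (dispersion 0.03) with 1 factor per library made 100% of low values (group mean under 12) whole to within 0.1; as deposited, 4.80% to 66.3% were, and at least 99.9% of values with group means of 12 to 20, which did not set the factors. Genotype contrasts and the interaction used deposited values. Diet contrasts used recovered reads divided by median-of-ratios factors, because the deposited values differed between diets by a median of 0.10 (log2) and the scaled reads by -0.01.

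limma 3.58.1 in R 4.3.3 was fitted to log2(value + 1) with an intensity trend, 4 group means over 12 libraries and Benjamini-Hochberg adjustment over 9367 genes. Genes with an adjusted p under 0.05 are called changed, and folds refer to the log2(value + 1) scale. The fit was checked on simulated counts that gave all genes the same dispersion. That check did not cover unequal spread between genes or small fold changes. edgeR was not run here. Members, lists and tests were chosen with earlier results of these data known. Named are all members, the called genes of 4 lists (other matrix, folding and secretion, remodelling, receptors), and the 5 genes most like Cg25C and vkg. From the remodelling list Adam was dropped, since the reference gives that name as a synonym of eIF3j. Marker lists covered fat body, hemocytes, muscle, neuron and glia, imaginal disc, salivary gland, and trachea or epidermis. Alternatives were other pseudocounts (0.5, 5), a mean of at least 10, no filter, no trend, only the libraries compared, a replicate block, quantile normalization, other scalings, limma voom and leaving out each library.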

Additional observations from a re-analysis of the deposited data

Results flagged for a closer look

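The cathepsin L gene Cp1 moved in opposite directions with genotype on the 2 diets, with no overlap of libraries in either. On the control diet the svp RNAi-labelled libraries were higher, at 2959, 2256 and 2217 against 2005, 1630 and 1524 in normalized abundance (log2 0.52 ± 0.14 SE, limma adjusted p = 0.035). On high sugar they were lower, at 2791, 2285 and 2567 against 2978, 2962 and 3141 (log2 -0.25 ± 0.14 SE, adjusted p = 0.28). The test of the difference itself, the interaction, gave -0.78 ± 0.20 (SE) with a limma adjusted p of 0.19. The control-diet call ended in 6 of 22 alternatives, among them those without control-diet control replicate 2 or 3, control-diet replicate 1 labelled svp RNAi or high-sugar replicate 3 labelled svp RNAi.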

How the results depend on the processing

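With genotype, the calls of Cg25C, vkg and trol on both diets, and of Pxn and Ndg on high sugar, kept direction and significance in all 22 alternatives. Diet counts were less stable. In control larvae, 3 members passed, but 0 without the intensity trend, and 1 with only the libraries compared or with deposited values unscaled. Leaving out single libraries gave 0 to 4 in control larvae and 1 to 5 in the svp RNAi-labelled libraries. Replicate numbers did not pair libraries: deviations of same-numbered libraries correlated at -0.19 to 0.16. A replicate block left 1 member called with diet in control larvae in place of 3, gave 5 in place of 4 in the svp RNAi-labelled libraries, and changed no other count of members.

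Over all genes, 178 and 792 diet calls became 101 and 479 without the trend. With deposited values unscaled, 118 higher and 60 lower became 260 and 47 in control larvae, and 443 and 349 became 1004 and 279 in the svp RNAi-labelled libraries. Interaction calls, 18 in all, became 28 with a pseudocount of 5 and 10 without the trend. Without single libraries these counts ran from 103 to 236, 275 to 880 and 6 to 30, and the 1255 genotype calls on high sugar from 785 to 1355.

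Small log2 values that were never called changed sign. Quantile normalization gave -0.048 for LanA and -0.0085 for LanB2 on the control diet, -0.0022 for LanB2 on high sugar, -0.098 for BM-40-SPARC with diet in the svp RNAi-labelled libraries, and interactions of -0.0062 for trol and -0.038 for LanB1. Without single libraries, genotype values on the control diet ran from -0.039 to 0.11 for LanA and from -0.0096 to 0.044 for LanB2. On high sugar they ran from -0.26 to 0.0024 for LanB1, from -0.0059 to 0.15 for LanB2 and from -0.15 to 0.011 for Ppn. Diet values ran from -0.25 to 0.0016 for Pxn in control larvae and from -0.18 to 0.18 for BM-40-SPARC in the svp RNAi-labelled libraries. Interactions ran from -0.16 to 0.043 for Cg25C, -0.056 to 0.23 for trol, -0.12 to 0.14 for LanB1, -0.021 to 0.13 for LanB2 and -0.023 to 0.14 for Ppn. The cause was not tested. Each member had 379 or more recovered reads in each library.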
